A study of Mus musculus with 5 samples.

Results

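Havcr1-expressing nuclei were GFP-positive kidney nuclei, called injured tubule after the known role of the gene, in which at least 1 transcript of Havcr1 was caught, so they were chosen by a measured count. They came from 4 libraries of GFP-positive kidney nuclei, read by single-nucleus RNA sequencing in droplets, which counts each captured transcript once by its unique molecular identifier (UMI). A barcode entered with at least 200 detected genes and at least 1 Havcr1 UMI, and 543 of 13021 GFP-positive nuclei did so. The series held 16359 such nuclei in 5 libraries, the fifth being GFP-negative nuclei from kidneys without injury. Within each library the members, called Havcr1+ nuclei below, were set against proximal tubule nuclei with at least 3 UMIs over Slc34a1, Lrp2 and Slc5a12 and none of Havcr1 or Vcam1, called comparison nuclei (7692 in all). The group most like them, 165 nuclei with a Vcam1 UMI and no Havcr1 UMI, is called Vcam1+ Havcr1- nuclei.

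All animals were male mice of 10 to 12 weeks that carried Six2-TGC together with Rosa26rtTA and pTRE-H2BeGFP. These transgenes place a green fluorescent histone in nephron cells under doxycycline, which was given in food (625 mg per kg) from shortly after birth. The label is driven by Six2, a gene of nephron progenitors, so it marks cells descended from them and the gate removes most other kidney cells, though not all. By their markers, 38 endothelial, 8 fibroblast and mural, and 6 macrophage and dendritic nuclei remained in the GFP-positive libraries. The groups were kidneys without injury, and kidneys after ischaemia and reperfusion (IRI), in which the vessels of both kidneys were clamped and released, taken at 64 h, 96 h and 28 d. Serum creatinine in the labels was 0.122, 0.375, 0.312 and 0.144 mg per dL in these 4 groups in that order. The sample labels say that the first group had no injury whereas the series' design text speaks of sham surgery, so it is not known whether those animals were operated on. There was 1 library per group, so differences between times have no replicate and none were tested.

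Havcr1 encodes kidney injury molecule 1 (KIM-1), a membrane protein of the TIM family that is scarce in healthy kidney and abundant on the proximal tubule after injury. It binds phosphatidylserine on dying cells and lets the epithelial cell take them up, and its shed outer part is measured in urine as a marker of tubule damage. Proximal tubule cells that survive ischaemia lose transport genes, switch on injury genes such as Krt20 and Spp1, and mostly return to their earlier state, while some keep a proinflammatory state marked by Vcam1.

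The Havcr1 promoter window is shown because Havcr1 defines the nuclei, and those of Krt20, Cdh6 and Sprr1a because they were among the genes with the largest excess in the same nuclei. Each window runs 5′ to 3′ from 250 bases before to 50 bases after a RefSeq gene start on GRCm38.p6. Capitals mark AP-1 motifs, searched as TGANTCA on both strands. Havcr1 has 3 such windows in the table, of which 1 is shown (chr11:46739973-46740272, plus strand); Krt20 lies at chr11:99438104-99438403, Cdh6 at chr15:13173626-13173925 and Sprr1a at chr3:92485832-92486131, all on the minus strand.
Havcr1: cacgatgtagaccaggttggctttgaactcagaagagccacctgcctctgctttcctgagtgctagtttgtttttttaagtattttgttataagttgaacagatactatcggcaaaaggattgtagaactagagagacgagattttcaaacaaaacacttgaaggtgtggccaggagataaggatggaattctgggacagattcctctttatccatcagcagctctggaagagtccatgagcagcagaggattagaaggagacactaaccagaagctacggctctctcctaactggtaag
Krt20: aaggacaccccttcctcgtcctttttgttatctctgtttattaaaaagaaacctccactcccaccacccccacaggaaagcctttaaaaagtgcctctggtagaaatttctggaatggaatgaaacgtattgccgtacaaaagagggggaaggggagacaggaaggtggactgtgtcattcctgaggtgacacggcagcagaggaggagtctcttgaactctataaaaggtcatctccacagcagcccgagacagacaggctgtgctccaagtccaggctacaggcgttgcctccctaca
Cdh6: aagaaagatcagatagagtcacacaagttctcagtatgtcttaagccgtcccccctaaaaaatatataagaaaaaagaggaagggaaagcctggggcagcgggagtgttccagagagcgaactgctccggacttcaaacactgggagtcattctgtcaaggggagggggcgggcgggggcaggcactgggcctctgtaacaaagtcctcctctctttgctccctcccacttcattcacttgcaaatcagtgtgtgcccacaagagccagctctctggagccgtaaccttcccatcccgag
Sprr1a: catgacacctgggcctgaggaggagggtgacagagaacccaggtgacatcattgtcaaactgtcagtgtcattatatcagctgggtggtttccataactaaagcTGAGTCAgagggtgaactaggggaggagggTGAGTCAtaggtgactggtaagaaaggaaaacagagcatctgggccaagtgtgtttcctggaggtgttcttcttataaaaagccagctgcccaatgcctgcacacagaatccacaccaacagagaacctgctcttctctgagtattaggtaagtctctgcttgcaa
The Sprr1a window held 2 AP-1 motifs, and the Havcr1, Krt20 and Cdh6 windows held neither of the motifs searched. Of 32851 promoter windows, 2565 (7.81%) held the AP-1 motif. The STAT motif TTCNNNGAA, also searched on both strands, stood in 2726 (8.30%). Among the 12 genes with the largest excess, 8 had a window, of which the AP-1 motif stood in that of Sprr1a and the STAT motif in that of Rtn1. These are matches of letters and not sites shown to be bound.

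Havcr1+ nuclei were present at every time and most frequent early after ischaemia. They numbered 33, 204, 240 and 66 at no injury, 64 h, 96 h and 28 d. Their share of GFP-positive nuclei was 0.941% without injury (95% exact binomial interval 0.648 to 1.32%), 6.77% at 64 h (5.90 to 7.73%), 7.50% at 96 h (6.61 to 8.46%) and 2.00% at 28 d (1.55 to 2.54%). The intervals of 64 h and 96 h overlapped, that of 28 d lay above that of no injury, and all of them cover counting error only. The median depth was 1793.5, 1290, 507 and 982 UMIs per nucleus at no injury, 64 h, 96 h and 28 d, so the 96 h library was the shallowest of the 4. With every nucleus thinned at random to 400 UMIs, the shares were 0.200%, 1.99%, 4.95% and 0.746% at no injury, 64 h, 96 h and 28 d. At equal depth the interval of 96 h (4.10 to 5.92%) lay above that of 64 h (1.52 to 2.56%).

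A single UMI can come from free RNA in the droplet, so the share was also read where Havcr1 should be lacking. Among GFP-negative nuclei without injury 10 of 3338 held a Havcr1 UMI (0.300%), of which 6 were among the 440 nuclei with proximal tubule as their marker class. Endothelial nuclei of that library held it in 0 of 696, which allows a share of up to 0.431%, at a median of 534 UMIs. The injured libraries held too few endothelial nuclei for such a limit (10, 3 and 14 at 64 h, 96 h and 28 d). Nuclei of the distal convoluted and connecting tubule class in the GFP-positive libraries held a Havcr1 UMI in 0 of 145, 1 of 158, 2 of 90 and 1 of 105 at no injury, 64 h, 96 h and 28 d, at median depths of 1295, 1010.5, 448 and 778 UMIs. At 96 h that is 2.22%, with a 95% exact binomial interval of 0.270 to 7.80% that includes the 7.50% of the whole library. Havcr1+ nuclei held 801 Havcr1 UMIs in all, and 414 of the 543 nuclei (76.2%) held exactly 1, the fewest that the definition admits. A further 70 held 2 UMIs and 59 held 3 or more, up to 10 in 1 nucleus. Those with at least 2 UMIs made up 0.257%, 1.99%, 1.31% and 0.546% of the GFP-positive nuclei at no injury, 64 h, 96 h and 28 d. At this stricter threshold the 96 h share lay below that of 64 h, with overlapping intervals, the reverse of the order at equal depth.

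**Figure D1:**
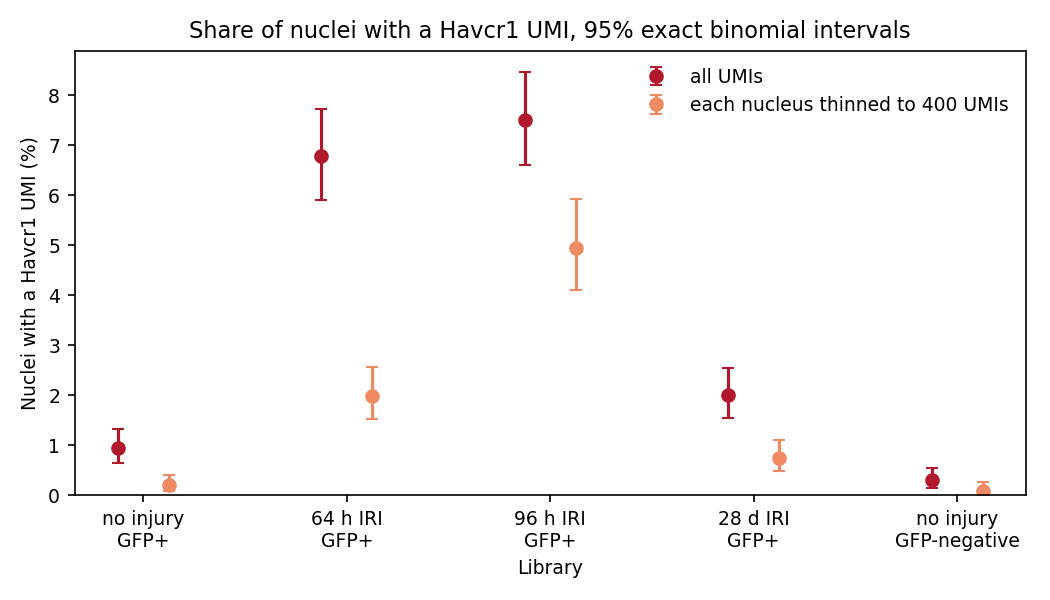
Share of GFP-positive nuclei with a Havcr1 UMI in each library (percent, y axis), with all UMIs and after thinning every nucleus to 400 UMIs, and in the GFP-negative library at the right. Bars are 95% exact binomial intervals. The 64 h and 96 h shares, 6.77% and 7.50% with all UMIs, stand above the 0.941% without injury and the 2.00% at 28 d.

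Most Havcr1+ nuclei carried proximal tubule transcripts or too few transcripts of any segment to be placed. Each nucleus was given to the segment or cell type with the most marker UMIs, from 3 upwards. The proximal tubule class pooled the 3 defining genes with 9 others, while the largest other class, endothelium, had 8. The part of this in the counts was not tested. Parietal epithelium had no class, so its nuclei could only be placed elsewhere or left without a class. Of the 543 members, 304 (56.0%) went to the proximal tubule, 21 (3.87%) to the thick ascending limb (TAL), 4 to the distal convoluted or connecting tubule, 3 to intercalated cells, 1 to the thin limb and 1 to endothelium. The other 209 (38.5%) reached no marker class. Podocyte, principal, fibroblast, macrophage and lymphocyte markers claimed 0 of the 543, which allows a share of up to 0.552% for each in nuclei whose markers could be read this way. At 64 h 39 of 204 members (19.1%) reached no class, and at 96 h 159 of 240 (66.3%). Read the other way, 0.979%, 7.20%, 4.59% and 2.02% of all nuclei of the proximal tubule class held a Havcr1 UMI at no injury, 64 h, 96 h and 28 d, and 1.28%, 2.91%, 3.31% and 0.778% of the TAL class.

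The label of injured tubule was read by Krt20, an intermediate filament keratin, and Spp1, the secreted phosphoprotein osteopontin, and it held for only some of the members. Both were detected in 70 of 543 Havcr1+ nuclei, Krt20 without Spp1 in 30, Spp1 without Krt20 in 223, and neither in 220 (40.5%). Neither was found in 15 of 33, 47 of 204, 123 of 240 and 35 of 66 members at no injury, 64 h, 96 h and 28 d, so at 96 h and 28 d most members lacked both. Krt20 was detected in 18.2%, 29.4%, 11.7% and 9.09% of Havcr1+ nuclei, against 0.412%, 3.65%, 1.09% and 0.384% of comparison nuclei. Spp1 was detected in 48.5%, 70.1%, 44.6% and 40.9% of Havcr1+ nuclei, against 18.1%, 50.1%, 28.9% and 16.7% of comparison nuclei. Both markers were thus more frequent in the members of every library, and Spp1 was also common in comparison nuclei.

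Havcr1+ nuclei were deeper than comparison nuclei, with median UMIs of 3102, 2154.5, 633 and 1696.5 against 2018, 1410, 536 and 1064 at no injury, 64 h, 96 h and 28 d. After thinning to 400 UMIs, Krt20 stood in 9.09%, 10.3%, 4.98% and 1.52% of Havcr1+ nuclei, against 0.0748%, 1.08%, 0.767% and 0.130% of comparison nuclei. Thinned Spp1 stood in 15.2%, 33.3%, 32.3% and 19.7% of Havcr1+ nuclei, against 4.53%, 23.2%, 21.1% and 6.72% of comparison nuclei. The order was the same at equal depth in all 4 libraries. Set against every nucleus without Havcr1, of any segment, thinned Spp1 was closer, at 6.42%, 31.2%, 26.7% and 9.84%.

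**Figure D2:**
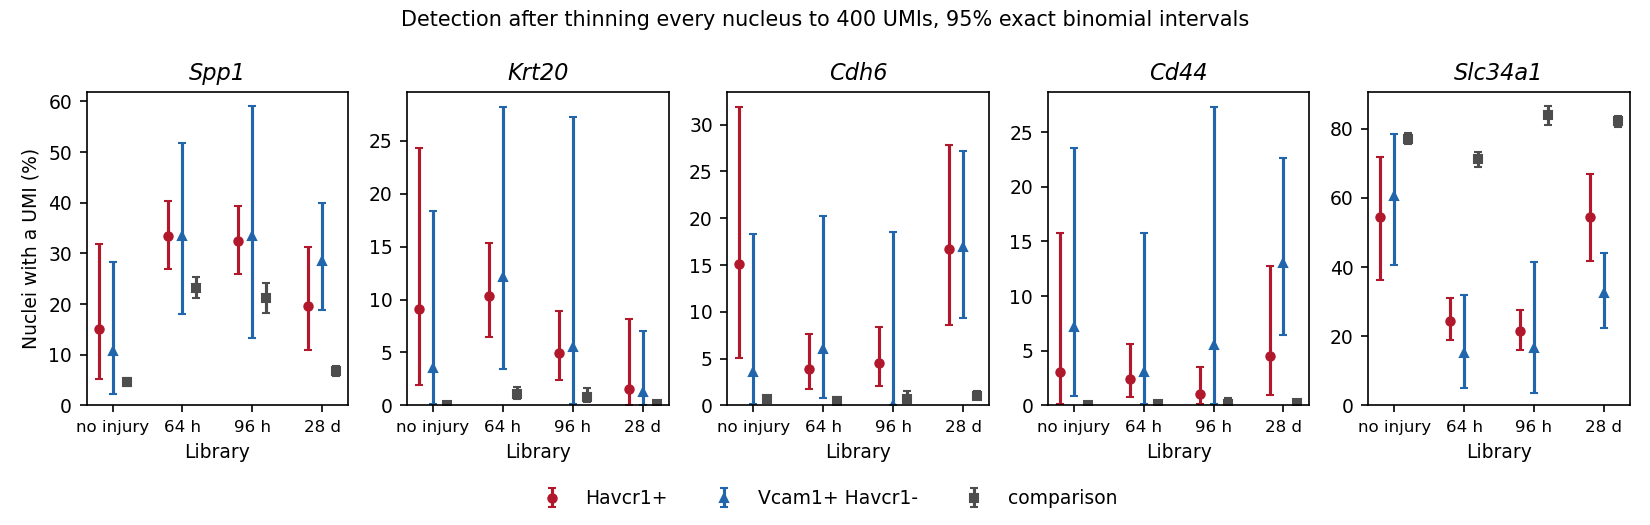
Share of nuclei with a UMI of Spp1, Krt20, Cdh6, Cd44 and Slc34a1 (percent, y axis) after thinning to 400 UMIs, in Havcr1+, Vcam1+ Havcr1- and comparison nuclei of each library, with 95% exact binomial intervals. Krt20, Cdh6 and Cd44 are near 0 in comparison nuclei and more frequent in both other classes, whose intervals are wide, and Slc34a1 runs the other way.

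The 5 genes that chose the nuclei are given as a description with no test. Levels are CPM, a gene's UMIs per 1000000 UMIs of a class in a library, listed as no injury, 64 h, 96 h and 28 d here and below. Havcr1 itself stood at 560, 708, 1716 and 792 CPM in the Havcr1+ nuclei, and since each member must hold a UMI, this level depends on the depth of the nuclei. Slc34a1, the sodium-phosphate cotransporter NaPi-IIa, stood at 1946, 654, 753 and 2418 CPM in Havcr1+ nuclei against 4030, 3173, 5468 and 4403 CPM in comparison nuclei. Lrp2, the endocytic receptor megalin, stood at 723, 575, 454 and 990 CPM in Havcr1+ nuclei against 1429, 1386, 1716 and 1852 CPM in comparison nuclei. Slc5a12, a lactate carrier, stood at 978, 398, 155 and 561 CPM in Havcr1+ nuclei against 1849, 2480, 1347 and 1680 CPM in comparison nuclei. Without injury 1 member held 48 of the 96 Slc5a12 UMIs. The same 3 UMIs that admitted comparison nuclei were reached by 26 of 33, 83 of 204, 30 of 240 and 43 of 66 members. Just under that threshold, 167, 163, 347 and 192 nuclei without Havcr1 or Vcam1 held 2 UMIs, and 112, 125, 283 and 161 comparison nuclei held exactly 3.

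For all other genes the UMIs were summed per library and class, and Havcr1+ sums were compared with the comparison sums of the same libraries by edgeR's quasi-likelihood test with Benjamini-Hochberg adjustment. Of 9338 genes tested, 628 were higher in Havcr1+ nuclei (6.73%) and 792 lower (8.48%), at an adjusted p under 0.05. The median log2 fold change over all genes tested was -0.02, and 388 of the higher and 333 of the lower genes changed at least 2-fold. The sign was the same in all 4 libraries for 512 of the higher and 682 of the lower genes, where 14.6% of all genes tested were higher in all 4 and 14.3% lower. Scaled to total UMIs without TMM factors, 741 genes were higher and 613 lower, so 54.7% of the calls were then higher against 44.2%. Without the 64 h library, which held most of the members' UMIs, the test called 333 higher and 346 lower genes. The 4 libraries differ in time and animal, so the p-values do not measure the spread between animals of 1 time. Each gene's variance was moderated towards that of the other genes (median total degrees of freedom 35.7). The p-values therefore depend on UMI counts and this shared variance, beyond how steadily a difference recurred. The SE, shown after ± below, was derived from the test statistic and is not a spread over the libraries.

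Because comparison nuclei were chosen for proximal tubule transcripts, the test was repeated with only those Havcr1+ nuclei that reached the same 3 UMIs (26, 83, 30 and 43). It then called 136 of 9175 genes higher (1.48%) and 199 lower (2.17%), and 330 of these 335 were also called with all members. That fit is called the matched gate below, and the part of its smaller size in the lower counts was not tested. Its members had median depths of 3220.5, 2145, 731.5 and 2151 UMIs, against 2018, 1410, 536 and 1064 in comparison nuclei. The gate was thus equal in UMIs and not in depth, and the part of depth was not tested.

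Genes of injured tubule, failed repair and inflammation were higher in Havcr1+ nuclei, and genes of proximal tubule transport and gluconeogenesis were lower, as were 11 of 32 genes of fatty acid oxidation. All list counts against comparison nuclei stand beside 6.73% of all genes tested higher and 8.48% lower. With the matched gate these shares were 1.48% and 2.17%. The genes with the largest excess included the factor Klf5, the cornified envelope protein Sprr1a, the hyaluronan receptor Cd44, the neutrophil chemokine Cxcl2, the plasminogen activator Plat, the YAP target Ankrd1, the cadherin Cdh6 and the keratin Krt20. The other 4 of the 12 were Gm17268, Mir155hg, Gm21807 and Rtn1, each found in fewer than 20 members. For 11 of the 12, Gm17268 aside, the lowest Havcr1+ library stood above the highest comparison library, as it did for 4.67% of all genes tested.

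Cdh6, a cadherin of the forming nephron tubule (gene at chr15:13028701-13173675, minus strand, GENCODE M21 on mm10), had the smallest adjusted p of all genes. It stood at 479, 129, 188 and 627 CPM in Havcr1+ nuclei, against 15.3, 9.89, 29.1 and 34.2 CPM in comparison nuclei. Every Havcr1+ library was above every comparison library, and the 2 highest were the uninjured and the 28 d kidneys. The log2 fold change was 4.01 ± 0.22 (SE, 4 libraries; adjusted p = 1.61e-15, edgeR), and 3.43 with the matched gate. Cdh6 was found in 83 members, and without injury 1 of them held 15 of its 47 UMIs. Cdh6 was also detected in 4.89%, 5.31%, 3.38% and 6.25% of all nuclei without Havcr1, against 2.10%, 1.32%, 1.39% and 2.60% of comparison nuclei. The excess over all nuclei without Havcr1, which include the comparison nuclei, was thus smaller than over the comparison nuclei alone.

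Krt20 (chr11:99428403-99438150, minus strand) stood at 143, 279, 177 and 74.3 CPM in Havcr1+ nuclei, against 1.98, 27.8, 17.8 and 3.14 CPM in comparison nuclei. It was highest at 64 h in both classes, and the classes did not overlap. Its log2 fold change was 3.80 ± 0.30 (adjusted p = 1.32e-11, edgeR), from 100 members with a UMI, and 3.49 with the matched gate. Spp1 stood at 621, 1004, 1174 and 668 CPM in Havcr1+ nuclei against 150, 712, 631 and 194 CPM in comparison nuclei, a log2 fold change of 1.10 ± 0.16 (adjusted p = 3.82e-06, edgeR). With the matched gate Spp1 had 0.54, close to the threshold (adjusted p = 0.047, edgeR). The Spp1 ranges overlapped, as the comparison nuclei of 64 h and 96 h reached the level of the Havcr1+ nuclei without injury.

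Cd44 stood at 91.7, 68.8, 27.7 and 173 CPM in Havcr1+ nuclei, against 0.825, 4.18, 1.61 and 10.5 CPM in comparison nuclei (log2 fold change 4.43 ± 0.43, adjusted p = 7.17e-10, edgeR). Plat stood at 81.5, 300, 49.8 and 90.8 CPM in Havcr1+ nuclei, against 5.94, 13.3, 1.61 and 4.53 CPM in comparison nuclei (4.21 ± 0.29, adjusted p = 4.98e-13, edgeR). Ankrd1 stood at 30.6, 115, 94.1 and 314 CPM in Havcr1+ nuclei, against 3.13, 8.37, 3.23 and 12.6 CPM in comparison nuclei (4.08 ± 0.31, adjusted p = 4.60e-12, edgeR). These were transcripts of a minority of the class, with a UMI in 35, 53 and 52 of the 543 members. Klf5 stood at 30.6, 58.3, 44.3 and 16.5 CPM in 33 members, against 1.81, 0.761, 0 and 1.40 CPM in comparison nuclei (4.80 ± 0.62, adjusted p = 2.78e-07, edgeR). Sprr1a stood at 295, 75.0, 38.7 and 49.5 CPM in 36 members, against 3.30, 7.22, 8.07 and 1.05 CPM in comparison nuclei (4.58 ± 0.47, adjusted p = 2.51e-09, edgeR). In the matched gate Cd44 had 2.65 (adjusted p = 0.026, edgeR), Plat 2.52 (0.00159), Sprr1a 2.52 (0.042), Ankrd1 3.13 (2.52e-07) and Klf5 4.35 (0.000709). Single nuclei weighed on Sprr1a, since 1 nucleus held 18 of its 29 UMIs without injury and 1 nucleus held all 6 at 28 d. Without injury 1 nucleus also held 5 of the 9 UMIs of Cd44, and 1 held 5 of the 8 of Plat. At 64 h 1 nucleus held 26 of the 144 Plat UMIs, and at 28 d 1 held 9 of the 38 of Ankrd1.

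**Figure D3:**
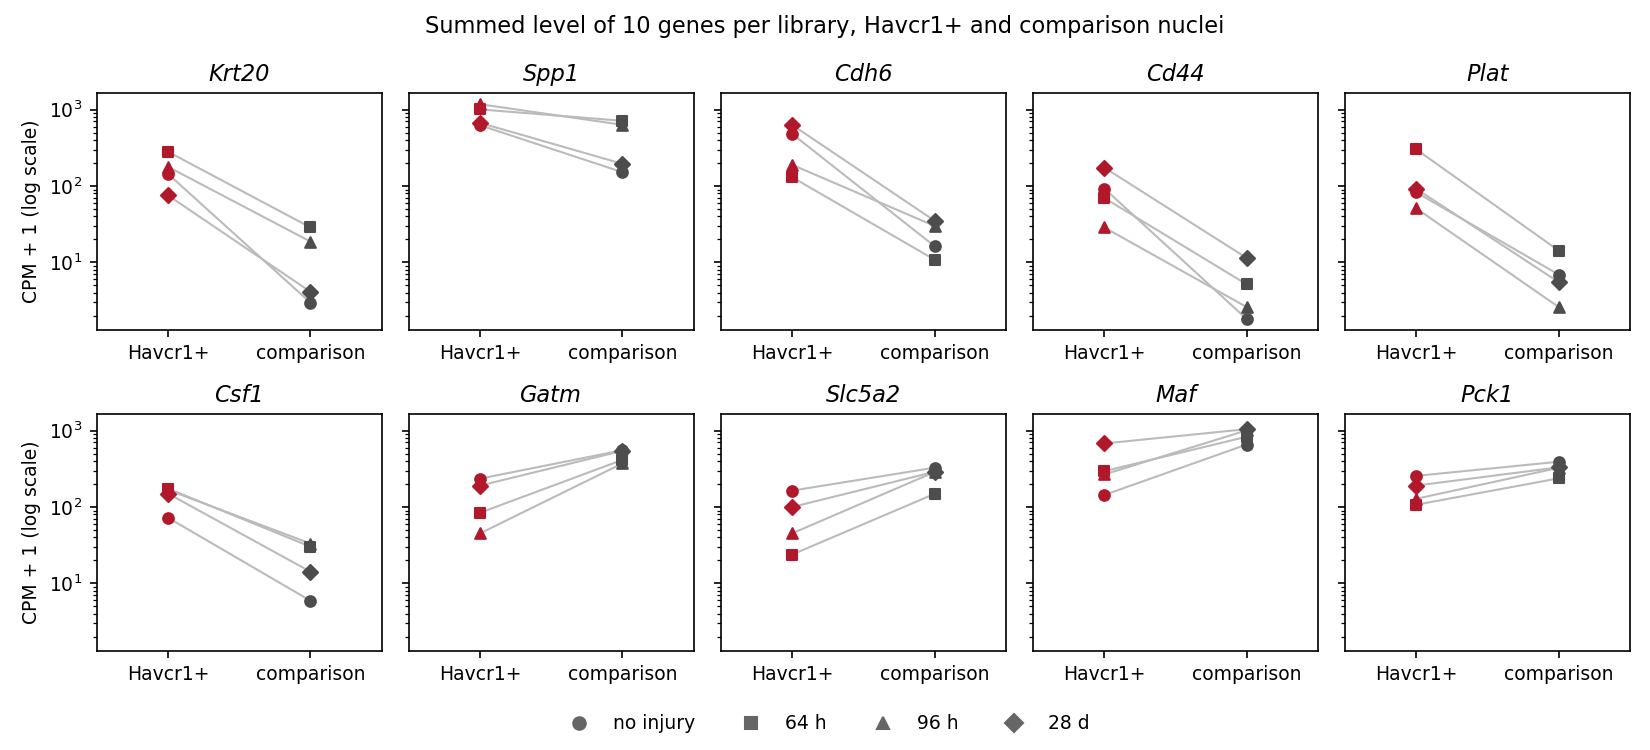
Summed level (CPM + 1, log scale, y axis) of 10 genes in Havcr1+ and comparison nuclei, with 1 marker per library and a line joining the classes of a library. Krt20, Spp1, Cdh6, Cd44, Plat and Csf1 are higher in the Havcr1+ nuclei of all 4 libraries, and Gatm, Slc5a2, Maf and Pck1 are lower in all 4.

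Of 25 tested genes in a list of tubule injury markers, 15 rose and 10 did not pass the test, with a median log2 fold change of 1.17. Besides Krt20, Spp1 and Cd44, the annexins Anxa3 and Anxa2 rose by log2 fold changes of 3.48 ± 0.33 and 2.82 ± 0.21. Anxa2, a membrane and actin-binding protein, stood at 112, 292, 271 and 99.0 CPM in Havcr1+ nuclei against 14.2, 30.4, 48.4 and 17.1 CPM in comparison nuclei. The galectin Lgals3 (2.20 ± 0.30), the S100 protein S100a6 (1.93 ± 0.16), the small heat shock protein Cryab (1.72 ± 0.16) and the stress cytokine Gdf15 (1.34 ± 0.19) also rose. The urinary injury marker Lcn2 did not pass, with a log2 fold change of 0.78 ± 0.64 (adjusted p = 0.51, edgeR). Lcn2 had UMIs in 0, 3, 9 and 0 Havcr1+ nuclei at the 4 times. Clu, a secreted chaperone often used with KIM-1 as a tubular damage marker, had 0.60 ± 0.26 (adjusted p = 0.12, edgeR). In the fit with the matched gate 8 of 24 genes of this list rose, at a median of 0.66, and the calls of Lgals3 (1.30, adjusted p = 0.17, edgeR) and Gdf15 (0.86, adjusted p = 0.11, edgeR) were lost.

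Of 18 tested genes known from failed repair, 12 rose, at a median of 1.48, against 6.73% higher over all genes tested. Of the 12, 8 did not overlap between the classes, as did 4.67% of all genes in that direction. Dock10, a guanine nucleotide exchange factor, stood at 326, 183, 83.0 and 454 CPM in Havcr1+ nuclei against 15.8, 27.0, 17.8 and 69.4 CPM in comparison nuclei. Its log2 fold change was 2.97 ± 0.22 (adjusted p = 3.00e-12, edgeR), and 2.61 with the matched gate. The ferroxidase Cp stood at 336, 131, 603 and 248 CPM in Havcr1+ nuclei against 22.1, 28.9, 43.6 and 53.4 CPM in comparison nuclei (2.87 ± 0.22, adjusted p = 4.60e-12, edgeR). The matched gate left 8 of 18 higher, at a median of 1.04. Vcam1, which the definition of the comparison nuclei used, was detected in 15.2%, 11.3%, 2.92% and 10.6% of Havcr1+ nuclei against 0.806%, 1.18%, 0.810% and 2.47% of all nuclei without Havcr1. Thinned to 400 UMIs these were 0%, 2.45%, 2.99% and 1.52% of Havcr1+ nuclei against 0.288%, 0.570%, 0.524% and 1.11%, at 0, 5, 6 and 1 members with a UMI.

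Of 23 tested genes of NF-kB and tubular cytokines, 16 rose, at a median of 1.57, and 10 did not overlap, against 6.73% and 4.67% of all genes tested. Csf1, the growth factor of macrophages, stood at 71.3, 173, 166 and 149 CPM in Havcr1+ nuclei against 4.95, 29.3, 32.3 and 13.3 CPM in comparison nuclei (2.77 ± 0.25, adjusted p = 2.91e-10, edgeR). Cxcl2 stood at 61.1, 31.3, 33.2 and 66.0 CPM in Havcr1+ nuclei against 0.330, 0.761, 4.84 and 6.98 CPM in comparison nuclei (4.24 ± 0.60, adjusted p = 1.76e-06, edgeR), with a UMI in 23 members. The ubiquitin ligase Birc3 rose by 2.61 ± 0.29 and the oncostatin M receptor Osmr by 2.57 ± 0.56, and the NF-kB subunits Nfkb1 and Relb by 1.83 ± 0.17 and 2.19 ± 0.38. Complement C3 did not pass (0.88 ± 0.37, adjusted p = 0.11, edgeR). Of 22 genes tested with the matched gate 6 rose, at a median of 1.04, Csf1 by 2.51, and the call of Relb was lost (1.52, adjusted p = 0.20, edgeR).

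Markers of leukocytes, which also make several of these cytokines, were low in both classes. The 6 macrophage and dendritic markers summed to 50.9, 41.7, 27.7 and 66.0 CPM in Havcr1+ nuclei against 37.9, 21.7, 43.6 and 51.6 CPM in comparison nuclei. Ptprc, the pan-leukocyte gene, had a UMI in 0, 2, 0 and 0 Havcr1+ nuclei, and the 3 neutrophil markers were at 0 in the Havcr1+ nuclei of all 4 libraries. The 3 markers of the parietal epithelium were higher, with Akap12 at 3.21 ± 0.26, Cldn1 at 2.32 ± 0.37 and Ncam1 at 2.14 ± 0.46. They summed to 204, 240, 221 and 363 CPM in Havcr1+ nuclei against 29.5, 37.3, 43.6 and 33.1 CPM in comparison nuclei, and their part in the other differences was not tested. Nuclei with at least 3 marker UMIs of more than 1 class made up 27.3%, 4.90%, 0.833% and 21.2% of Havcr1+ nuclei against 13.6%, 4.31%, 0.995% and 8.92% of comparison nuclei. The part of doublets and free RNA in the no injury and 28 d values was not tested.

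**Figure D4:**
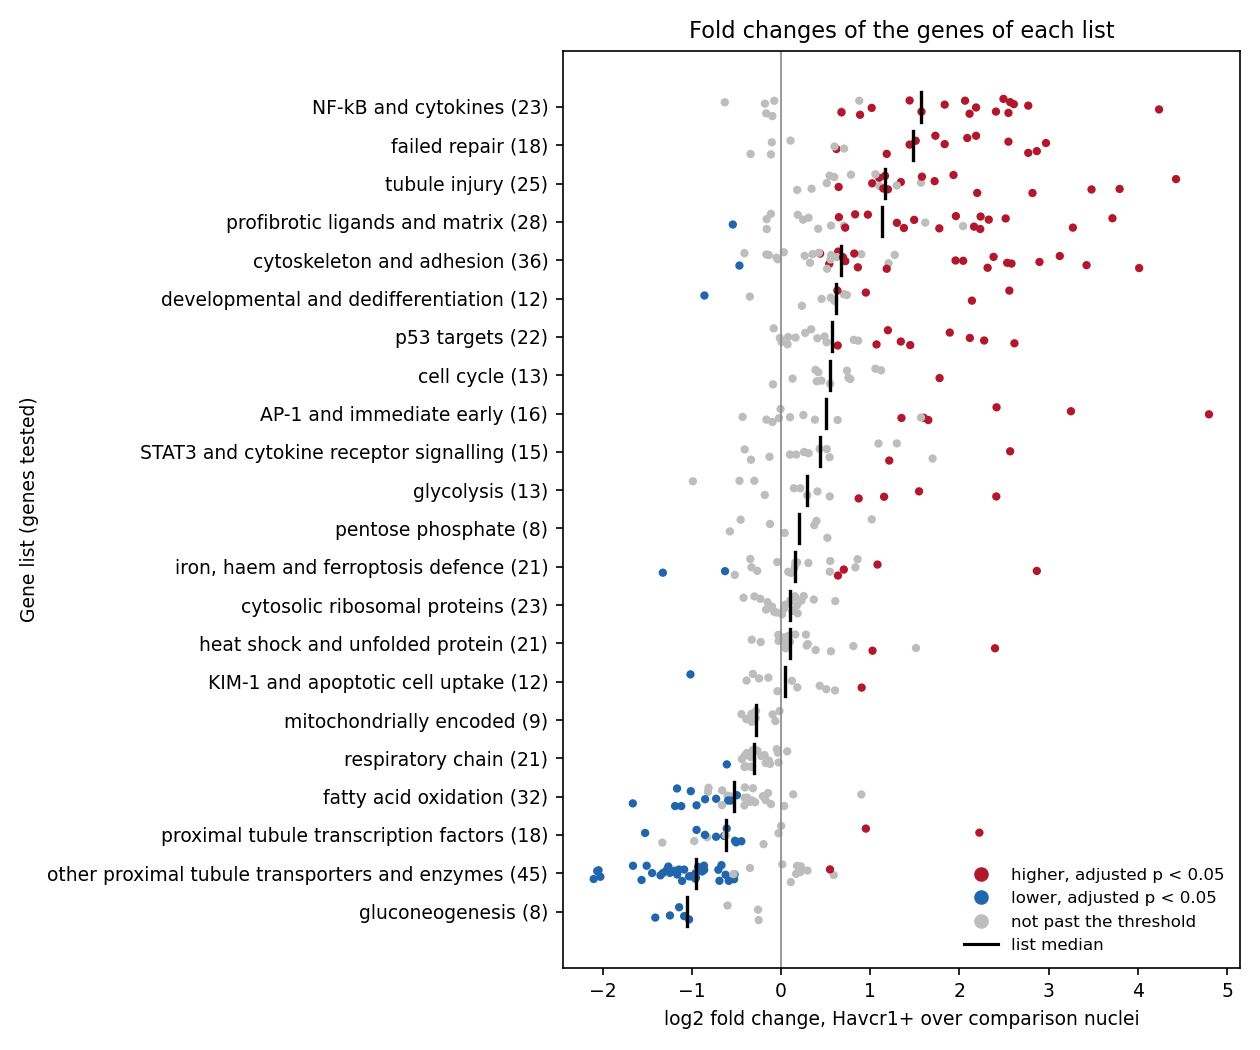
Log2 fold change of each tested gene (points, x axis) in lists of injury, repair, signalling and metabolism, Havcr1+ over comparison nuclei, with genes past the threshold in red (higher) and blue (lower), the others in grey and the median of each list as a bar. Injury, failed repair and NF-kB lists lie mostly above 0, with medians of 1.17, 1.48 and 1.57, and proximal tubule transport and gluconeogenesis lists lie mostly below it.

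Signals to the matrix and the stroma were higher as well. Of 28 tested profibrotic ligands and matrix genes, 16 rose and 1, the growth factor Pdgfc, fell, at a median of 1.14. Plaur, the urokinase receptor, rose by 3.27 ± 0.40. Pdgfd, a ligand of the PDGF receptor beta, stood at 265, 79.2, 83.0 and 380 CPM in Havcr1+ nuclei against 41.6, 25.9, 8.07 and 58.6 CPM in comparison nuclei (2.33 ± 0.22, adjusted p = 6.90e-10, edgeR). The integrin chain Itga3 rose by 2.52 ± 0.28, while Pdgfb did not pass (0.71 ± 0.28, adjusted p = 0.088, edgeR). The matched gate left 6 of 23 higher and 0 lower, at a median of 0.52.

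Of 36 tested genes of cytoskeleton and adhesion, 18 rose and 1, the membrane-actin linker Rdx, fell, at a median of 0.67. Actn1, an actin cross-linker, stood at 112, 188, 116 and 149 CPM in Havcr1+ nuclei against 12.5, 13.3, 24.2 and 18.1 CPM in comparison nuclei (3.12 ± 0.26, adjusted p = 1.64e-11, edgeR). The filamin Flnc rose by 3.42 ± 0.48 and the claudin Cldn4 by 2.90 ± 0.63, both at 0 in the Havcr1+ nuclei of the no injury library. Of the 27 UMIs of Cldn4, 9 stood in 1 nucleus. E-cadherin, Cdh1, did not pass (0.42 ± 0.19, adjusted p = 0.14, edgeR). The matched gate left 7 of 34 higher and 0 lower, at a median of 0.41. Under both other scalings, DESeq2 size factors and total UMIs, the call of Rdx was lost, and the call of Pdgfc was lost with total UMIs.

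Stress-response genes rose in smaller shares, and few of them held with the matched gate. Of 22 tested p53 targets, 9 rose, at a median of 0.57, led by the phosphatase Ptpn14 (2.62 ± 0.29) and the AKT inhibitor Phlda3 (2.28 ± 0.54). Cdkn1a, the cell cycle inhibitor p21, rose by 1.20 ± 0.35 (adjusted p = 0.013, edgeR), with UMIs in the 64 h, 96 h and 28 d libraries and 0 CPM in Havcr1+ nuclei without injury. With the matched gate 1 of 21 p53 targets rose, Ptpn14 (2.20), and the calls of Phlda3 (2.00, adjusted p = 0.29, edgeR) and Cdkn1a (0.32, adjusted p = 0.92, edgeR) were lost. Of 16 tested AP-1 and immediate early genes, 6 rose, at a median of 0.51, led by Klf5, Fosl1 (3.25 ± 0.64), Egr1 (2.42 ± 0.55) and Junb (1.65 ± 0.33). The matched gate left 2 of 14 higher, with Egr1 (adjusted p = 0.19, edgeR) and Junb (adjusted p = 0.087, edgeR) lost, and thinning left 1 of 13, at a median of -0.10. Of 15 tested genes of STAT3 and cytokine receptor signalling, 2 rose, Osmr and the feedback inhibitor Socs2 (1.21 ± 0.30), and 0 of 13 with the matched gate. Of 13 tested cell cycle genes, 1 rose, the formin Diaph3 (1.78 ± 0.39), a share near the 6.73% of all genes, and 0 of 10 with the matched gate (Diaph3 1.17, adjusted p = 0.45, edgeR). Top2a, the topoisomerase of dividing cells, did not pass (0.74 ± 0.54, adjusted p = 0.45, edgeR).

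Of 21 tested heat shock and unfolded protein genes, 2 rose, Hspb1 (2.40 ± 0.38) and Hsp90aa1 (1.03 ± 0.22), a share near the 6.73% of all genes. The matched gate left 0 of 21 higher, with Hspb1 at an adjusted p of 0.17 and Hsp90aa1 of 0.22 (edgeR). The endoplasmic reticulum chaperone Hspa5 did not pass (0.30 ± 0.20, adjusted p = 0.40, edgeR). In the list of iron, haem and ferroptosis defence, 4 of 21 rose and 2 fell, the latter a share near the 8.48% of all genes. The risers were Cp, the metallothionein Mt2 (1.08 ± 0.31), the lipid enzyme Acsl4 (0.70 ± 0.24) and the glutathione enzyme Gclc (0.64 ± 0.14), and the fallers the ferritin receptor Ncoa4 (-1.32 ± 0.43) and the ferritin chain Ftl1 (-0.63 ± 0.13). The excess of Mt2 and Acsl4 did not hold with the matched gate, where their log2 fold changes were -0.94 and -0.0947, and 1 of the 21 then rose and 1 fell. The call of Gclc (0.37, adjusted p = 0.20, edgeR) was lost as well, and that of Ncoa4 (-1.82, adjusted p = 0.14, edgeR). The 23 tested cytosolic ribosomal protein genes gave 0 calls by edgeR and 0 by DESeq2, with 2 of them under an unadjusted p of 0.05, and a median of 0.10.

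Havcr1 works in a pathway of dying cell uptake, and its other members showed few differences. Of 12 tested genes of that list, 1 rose and 1 fell, at a median of 0.04, against 6.73% and 8.48% over all genes. Dock1, which activates Rac in engulfment, rose at 224, 238, 183 and 231 CPM in Havcr1+ nuclei against 145, 101, 90.4 and 126 CPM in comparison nuclei (0.90 ± 0.16, adjusted p = 4.73e-05, edgeR). The uptake receptor Mertk fell at 153, 41.7, 60.9 and 57.8 CPM in Havcr1+ nuclei against 182, 106, 90.4 and 152 CPM in comparison nuclei (-1.01 ± 0.21, adjusted p = 0.000622, edgeR). The protease Adam10 and the TIM family member Timd2 did not pass, at -0.25 ± 0.16 (adjusted p = 0.35, edgeR) and 0.61 ± 0.22 (adjusted p = 0.054, edgeR). With the matched gate 0 of 12 genes of the list were called, Dock1 at 0.44 (adjusted p = 0.43, edgeR) and Mertk at -0.68 (adjusted p = 0.19, edgeR).

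Proximal tubule genes outside the defining 3 were lower in Havcr1+ nuclei. Of 45 tested transporters and enzymes, 34 fell, 1 rose, the aspartic protease Napsa, and 10 did not pass, at a median of -0.95. Gatm, the first enzyme of creatine synthesis, stood at 234, 83.3, 44.3 and 190 CPM in Havcr1+ nuclei against 552, 413, 371 and 543 CPM in comparison nuclei. Its log2 fold change was -2.06 ± 0.19 (adjusted p = 2.35e-10, edgeR), with no overlap between the classes, where 3.66% of all genes tested stood wholly below. Slc5a2, the glucose transporter SGLT2, stood at 163, 22.9, 44.3 and 99.0 CPM in Havcr1+ nuclei against 326, 148, 286 and 288 CPM in comparison nuclei (-2.05 ± 0.22, adjusted p = 7.68e-09, edgeR). Slc6a19, a carrier of neutral amino acids, fell by 2.02 on the log2 scale and the phosphate transporter Slc34a3 by 2.10. Slc34a3 had only 5 UMIs in 4 members, and its ranges overlapped. Its call was lost with the matched gate (-1.28, adjusted p = 0.38, edgeR), where Slc6a19 had -1.35. Slc7a13, an amino acid carrier of the late proximal tubule, did not pass (-0.35 ± 0.14, adjusted p = 0.082, edgeR).

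With the matched gate 19 of the 45 fell and 1 rose, at a median of -0.49, a smaller deficit in members that passed the same gate. Gatm had a log2 fold change of -1.46 and Slc5a2 of -1.50 in that fit. The 12 genes with the largest deficit were mostly scarce, 11 of them found in fewer than 20 members. The exception was Kynu, an enzyme of tryptophan breakdown, at 10.2, 58.3, 44.3 and 16.5 CPM in Havcr1+ nuclei against 90.6, 226, 161 and 119 CPM in comparison nuclei (-2.16 ± 0.23, adjusted p = 4.39e-09, edgeR). Among the others with a gene name were the cytochromes Cyp2d12 (-2.73) and Cyp2d26 (-2.44).

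Of 18 tested proximal tubule transcription factors, 9 fell and 2 rose, at a median of -0.61. Maf stood at 143, 294, 266 and 677 CPM in Havcr1+ nuclei against 655, 829, 1004 and 1043 CPM in comparison nuclei (-1.52 ± 0.16, adjusted p = 7.40e-09, edgeR). Ppara, the fatty acid sensor, fell by 0.95 and Hnf4a, which maintains proximal tubule identity, by 0.61 on the log2 scale. With the matched gate 1 of 18 rose and 1 fell, Maf had -0.95 and the call of Hnf4a was lost (-0.31, adjusted p = 0.63, edgeR). Pax8, a factor of kidney development, rose at 805, 1404, 974 and 776 CPM in Havcr1+ nuclei against 373, 688, 472 and 396 CPM in comparison nuclei (0.95 ± 0.12, adjusted p = 1.54e-07, edgeR). Every Havcr1+ library stood above every comparison library for Pax8, and its log2 fold change was 0.68 with the matched gate.

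Of 12 tested genes of nephron development and dedifferentiation, 4 rose and 1 fell, the latter a share near the 8.48% of all genes, at a median of 0.62. The risers were the Notch ligand Jag1 (2.56 ± 0.42), the receptor Notch2 (0.63 ± 0.21), Ncam1 and Pax8, and the faller the R-spondin receptor Lgr4 (-0.86 ± 0.14). Jag1 stood at 61.1, 31.3, 49.8 and 57.8 CPM in Havcr1+ nuclei against 4.95, 5.32, 9.69 and 12.2 CPM in comparison nuclei, with no overlap. Under the matched gate 1 of 12 rose, Pax8, and 1 fell, Lgr4 (-0.87). The calls of Jag1 (1.73, adjusted p = 0.22, edgeR), Ncam1 (1.49, adjusted p = 0.31, edgeR) and Notch2 (0.50, adjusted p = 0.55, edgeR) were lost, and thinning gave the list a median of 0.0924.

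Glucose-making genes fell, and some glycolytic genes rose with all members but not with the matched gate. Of 8 tested gluconeogenesis genes 5 fell, at a median of -1.06, and they were the glucose-6-phosphate transporter Slc37a4 (-1.41 ± 0.23), the phosphatase G6pc (-1.24 ± 0.28), the carboxylase Pcx (-1.14 ± 0.18), the carboxykinase Pck1 (-1.09 ± 0.16) and the bisphosphatase Fbp1 (-1.03 ± 0.17). Pck1 stood at 255, 106, 127 and 190 CPM in Havcr1+ nuclei against 390, 236, 325 and 329 CPM in comparison nuclei. The summed list stood at 744, 581, 664 and 735 CPM in Havcr1+ nuclei against 1297, 1110, 1303 and 1178 CPM in comparison nuclei, a ratio between 0.510 and 0.624. With the matched gate 2 of 8 fell, at a median of -0.54, Pck1 by 0.66 on the log2 scale (adjusted p = 0.038, edgeR).

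Of 13 tested glycolysis genes 4 rose, at a median of 0.29. They were the glucose transporter Slc2a1 (2.41 ± 0.43), the pyruvate kinase Pkm (1.55 ± 0.27), the phosphofructokinase Pfkp (1.16 ± 0.23) and the regulator Pfkfb3 (0.87 ± 0.29). Gapdh did not pass (-0.99 ± 0.58, adjusted p = 0.31, edgeR). Slc2a1 had 0 CPM in Havcr1+ nuclei without injury, and with the matched gate 0 of 12 genes rose. The 4 genes then had adjusted p of 0.46 (Slc2a1), 0.070 (Pkm), 0.20 (Pfkp) and 0.16 (Pfkfb3), by edgeR. Pfkp stood at 112, 87.5, 116 and 116 CPM in Havcr1+ nuclei against 27.2, 46.4, 56.5 and 42.6 CPM in comparison nuclei. The 8 tested pentose phosphate genes gave 0 calls by edgeR and 0 by DESeq2, with 1 of them under an unadjusted p of 0.05.

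Of 32 tested genes of fatty acid oxidation 11 fell, at a median of -0.53. Cyp4a14 fell by 1.66, Acaa1b by 1.19, Acox2 by 1.17 and Cyp4a10 by 1.12 on the log2 scale, all of them enzymes of peroxisomal or microsomal fatty acid breakdown. Acaa1b stood at 265, 133, 354 and 272 CPM in Havcr1+ nuclei against 389, 351, 875 and 498 CPM in comparison nuclei. Cpt1a, the carnitine transferase of mitochondrial import, did not pass (-0.31 ± 0.17, adjusted p = 0.26, edgeR). Under the matched gate 2 of 32 fell, at a median of -0.31, and the call of Cyp4a14 was lost (-1.28, adjusted p = 0.099, edgeR). Of 21 tested respiratory chain genes 1 fell, Sdhb (-0.61 ± 0.20), a share below the 8.48% of all genes, and 0 with the matched gate. The 9 tested mitochondrially encoded genes gave 0 calls by edgeR and 0 by DESeq2, with 0 of them under an unadjusted p of 0.05.

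The difference between the classes was set on levels that moved in both of them after ischaemia. The injury list summed to 2078, 4988, 4738 and 1956 CPM in Havcr1+ nuclei, to 1850, 6489, 5245 and 2150 CPM in Vcam1+ Havcr1- nuclei and to 580, 1985, 2038 and 647 CPM in comparison nuclei. Havcr1+ nuclei were 2.33 to 3.59 times as high as comparison nuclei in the 4 libraries. The NF-kB and cytokine list summed to 1538, 2129, 2779 and 2402 CPM in Havcr1+ nuclei and to 488, 655, 1426 and 772 CPM in comparison nuclei, 1.95 to 3.25 times as high. Proximal tubule transporters and enzymes summed to 20111, 10474, 11292 and 16234 CPM in Havcr1+ nuclei and to 28566, 18933, 20897 and 25918 CPM in comparison nuclei. The cell cycle list summed to 183, 886, 1273 and 289 CPM in Havcr1+ nuclei and to 223, 441, 872 and 265 CPM in comparison nuclei. It was high at 64 h and 96 h in both classes, and without injury it was not higher in Havcr1+ nuclei.

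**Figure D5:**
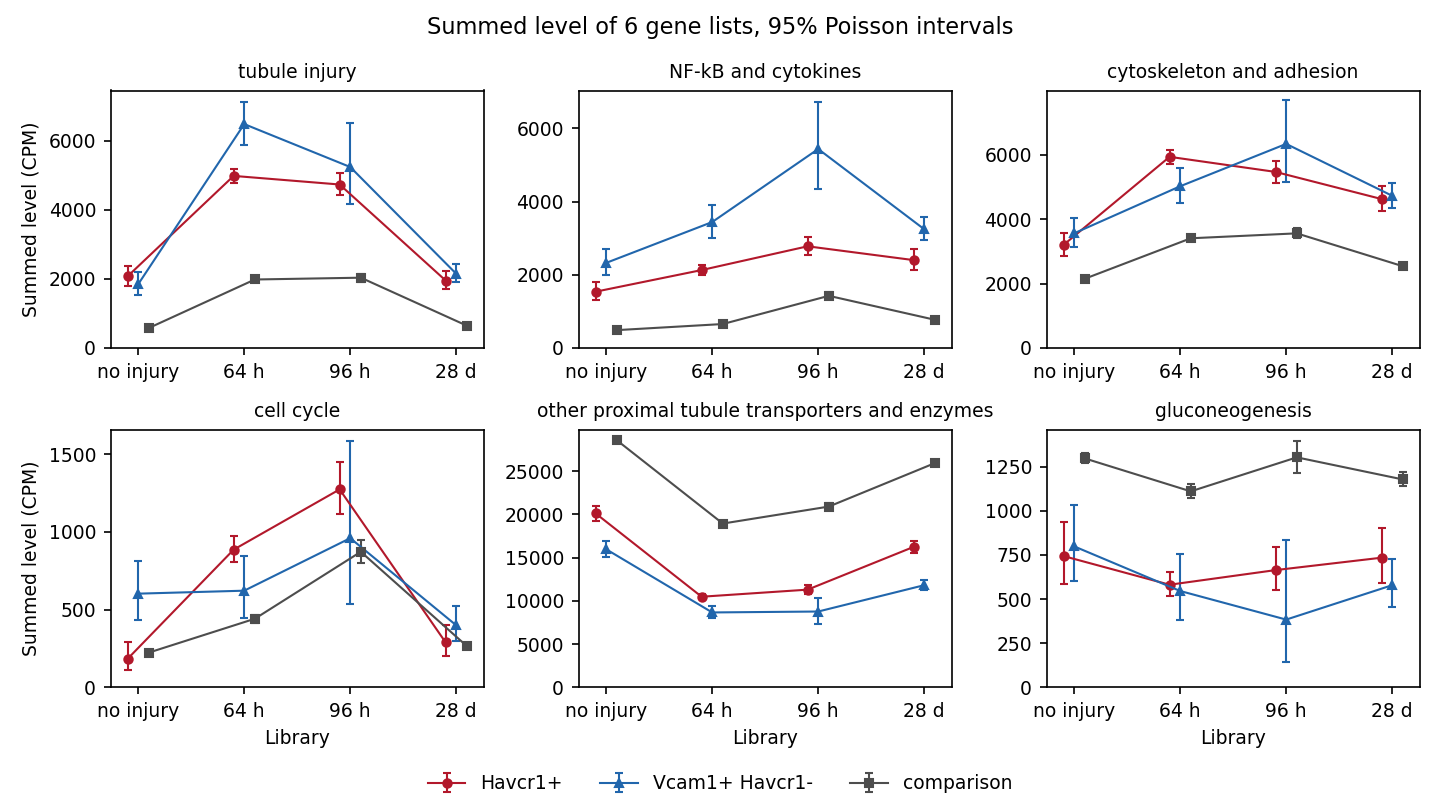
Summed level (CPM, y axis) of 6 gene lists in Havcr1+, Vcam1+ Havcr1- and comparison nuclei at no injury, 64 h, 96 h and 28 d, with exact 95% Poisson intervals that cover counting error only. The injury list reaches 4988 CPM in Havcr1+ nuclei at 64 h and stands above comparison nuclei at every time, and the transporter list stands below them at every time.

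Havcr1+ nuclei differed among themselves between those with 1 Havcr1 UMI and those with more, and with the proximal tubule transcripts they held. Krt20 stood at 446, 450, 221 and 106 CPM in members with at least 2 Havcr1 UMIs, against 40.8, 186, 164 and 60.0 CPM in members with 1. Slc34a1 stood at 933, 201, 294 and 1425 CPM in members with at least 2 Havcr1 UMIs, against 2286, 900, 887 and 2870 CPM in members with 1. In all 4 libraries the members with more Havcr1 had more Krt20 and less Slc34a1. Krt20 counts were low outside 64 h, with 14, 134, 32 and 9 UMIs over all members. Median depth was 2646, 2732.5, 889 and 2102.5 UMIs with at least 2 Havcr1 UMIs, against 3220.5, 1938.5, 580 and 1478 with 1. Cdh6 did not follow this order in every library, at 1339, 166, 123 and 686 CPM with at least 2 UMIs against 190, 109, 207 and 600 CPM with 1. These are values of 9, 60, 42 and 18 members against 24, 144, 198 and 48, given without a test because Havcr1 chose the members.

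Members under the proximal tubule gate carried more Cd44, at 391, 105, 32.3 and 484 CPM, than members that passed it, at 24.9, 19.6, 0 and 66.5 CPM. For Cdh6 the levels were 559, 196, 213 and 1226 CPM under the gate and 461, 39.1, 39.0 and 421 CPM through it. Both genes were higher under the gate in all 4 libraries, without a test. At 96 h the members through the gate held only 25622 UMIs, so 0 and 39.0 CPM there stand at the floor of detection. Without injury 1 member held 5 of the 9 Cd44 UMIs. The number of members under the gate was 7, 121, 210 and 23.

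Against Vcam1+ Havcr1- nuclei of the same libraries, few genes differed. Of 7825 genes tested, 15 were higher in Havcr1+ nuclei (0.192%) and 21 lower (0.268%) by edgeR's quasi-likelihood test, with 448 under an unadjusted p of 0.05 and a median log2 fold change of 0.10. DESeq2 called 0, and leaving out the 96 h library left 0, so these calls are given as values that did not hold under every alternative. The Vcam1+ Havcr1- class had 28, 33, 24 and 80 nuclei, and its 96 h sum held 15633 UMIs. In this fit the variance was shared over genes almost wholly (median total degrees of freedom 23475).

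Genes higher in Havcr1+ than in Vcam1+ Havcr1- nuclei included proximal tubule transporters. Slc5a8, a carrier of lactate and other monocarboxylates, stood at 173, 131, 144 and 173 CPM in Havcr1+ nuclei against 14.0, 45.5, 64.0 and 62.6 CPM in Vcam1+ Havcr1- nuclei (1.86, adjusted p = 0.016, edgeR). Every Havcr1+ library was above every Vcam1+ Havcr1- library for Slc5a8, as for 2.04% of all genes tested. The urate transporter Slc22a12 (1.49), the acyl-CoA synthetase Acsm3 (1.70), Slc7a13 (1.13) and Sprr1a (2.92) were also higher. The rule for naming required an excess in all 4 libraries, which 9.43% of all genes tested had. Ctnna2 (2.64) was the sixth, with 18 of its 61 UMIs in 1 nucleus. For Slc7a13 without injury, 1 nucleus held 30 of its 82 UMIs. At 96 h the Vcam1+ Havcr1- nuclei held 0 UMIs of all these genes but Slc5a8, and 1 UMI is 64.0 CPM in that sum. Sprr1a, Acsm3 and Ctnna2 stood at 38.7, 44.3 and 33.2 CPM in Havcr1+ nuclei there, below that floor. In Vcam1+ Havcr1- nuclei Sprr1a had 1, 2, 0 and 1 UMIs at the 4 times, and Slc5a8 1, 3, 1 and 8. Of 43 tested proximal tubule transporters and enzymes, 4 were higher in Havcr1+ nuclei, at a median of 0.42 against 0.10 over all genes.

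Genes lower in Havcr1+ than in Vcam1+ Havcr1- nuclei included NF-kB targets. Cxcl10, a chemokine of T cells, stood at 50.9, 27.1, 27.7 and 49.5 CPM in Havcr1+ nuclei against 168, 212, 192 and 117 CPM in Vcam1+ Havcr1- nuclei (-2.11, adjusted p = 0.00244, edgeR). It did not overlap between the classes, where 0.792% of all genes tested stood wholly below. Being lower in all 4 libraries, as 5.14% of all genes tested were, was required for naming. Of 22 tested NF-kB and cytokine genes 3 were lower, Cxcl10, C3 (-1.69) and the inhibitor Nfkbia (-1.22), at a median of -0.62. Of 18 tested failed repair genes 2 were lower, Dock10 (-1.07) and Cp (-0.94), at a median of -0.60. Both Dock10 and Cp were also higher in Havcr1+ than in comparison nuclei, and Havcr1+ nuclei stood between the other classes in all 4 libraries for Dock10 and in all but the 96 h library for Cp. The others named by size were the t-SNARE Stx11 (-2.56), the phosphodiesterases Pde7b (-2.10) and Pde4b (-2.01), the actin-binding Tagln2 (-1.85) and Calb1 (-3.69). Calb1 marks the connecting tubule, whose 3 markers summed to 30.6, 29.2, 122 and 396 CPM in Havcr1+ nuclei against 3615, 75.8, 64.0 and 70.4 CPM in Vcam1+ Havcr1- nuclei. Endothelial markers summed to 163, 113, 166 and 256 CPM in Havcr1+ nuclei against 350, 288, 256 and 258 CPM in Vcam1+ Havcr1- nuclei, and the part of other cell types in these differences was not tested.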

How the data were processed

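UMI counts per gene and nucleus were used as deposited, 1 matrix per library. The submitters' processing notes name Cell Ranger 2.1, bcl2fastq 2.17 and STAR 2.5.1b, and the genome build mm10. The series' design text adds that the authors aligned reads to a pre-mRNA reference. Intronic reads therefore count, and levels are those of nuclear RNA, in which signal from intron-rich genes is favoured. The libraries held 7153971, 4500630, 1922002 and 3767530 UMIs at no injury, 64 h, 96 h and 28 d, and 3846624 in the GFP-negative library. Barcodes under 200 detected genes were left out, 306 at 96 h and 1 in the GFP-negative library, of which 4 at 96 h held Havcr1. Library pairs shared 9 to 20 barcode sequences, and 0 of these were Havcr1+ in both.

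UMIs were summed per library and class into 8 sums for each comparison. Genes with a mean of at least 10 CPM and at least 20 UMIs were tested with edgeR 4.0.16 (R 4.3.3) with TMM factors and the library as a term, adjusted at 0.05 over all genes tested. The library term pairs both classes of 1 library, for which the labels do not say whether it came from 1 animal or several. Shares carry exact Clopper-Pearson and levels exact Poisson 95% intervals, for counting error only. Thinning drew 400 UMIs per nucleus with seed 1 (numpy 2.4.6, scipy 1.17.1, pandas 2.3.3, Python 3.11.15) and left out shallower nuclei. No doublet caller was run. The code was tested on simulated data. Figures used matplotlib 3.10.9.

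Named were the rule genes, the 12 genes with the largest fold change in each direction (6 against Vcam1+ Havcr1- nuclei) among those past the threshold with 1 sign in all 4 libraries, and from each list up to 4 called genes and well-known uncalled ones. Further called members of a list were named after their values were seen. The members and lists were chosen with earlier results of these data known. Alternatives were DESeq2 1.42.0, 2 other scalings, no filter, no library term, each library left out, at least 2 Havcr1 UMIs, thinning, at least 400 genes, no barcodes above the 95th UMI percentile, both classes gated, and ungated comparison nuclei; a fit of only 64 h and 96 h was added after seeing the data. Gene coordinates came from GENCODE M21 by identifier, matched for 105 of 106 genes looked up. Cell type calls of the authors were not used here.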

Additional observations from a re-analysis of the deposited data

How the results depend on the processing

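Against comparison nuclei, 628 genes were higher and 792 lower. Of 103 named genes, 81 (thinned) to 103 had a value under each alternative, 84 with both classes gated, which was run against comparison nuclei only. Of these 1566 values, 1257 kept their direction and side of the threshold, 294 lost the call, 7 gained it and 8 changed direction. DESeq2 called 415 higher and 370 lower, and the fit without a replicate block (no library term) 165 and 92. Thinned nuclei gave 128 and 333, the gate on both classes 136 and 199, and ungated comparison nuclei 360 and 494. At least 2 Havcr1 UMIs gave 361 and 820. The other scalings, the filter, at least 400 genes, leaving out the deepest barcodes, and only 64 h and 96 h stayed within 1.5 times. Leaving out 1 library gave 333 to 562 higher and 346 to 695 lower genes, the lowest of each without 64 h.

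Against Vcam1+ Havcr1- nuclei, 15 genes were higher and 21 lower. DESeq2 and the fit without a replicate block both called 0 and 0. Leaving out 1 library gave 0 to 7 higher and 0 to 12 lower, with 0 and 0 without 96 h, 4 and 2 without 64 h, 2 and 11 without no injury, and 7 and 12 without 28 d. Only 64 h and 96 h gave 0 and 4, thinning 1 and 0, no filter 12 and 5, at least 400 genes 7 and 10, no barcodes above the 95th percentile 7 and 2, and at least 2 Havcr1 UMIs 8 and 22. The causes were not tested.

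Shares of Havcr1+ nuclei at no injury, 64 h, 96 h and 28 d were 0.941%, 6.77%, 7.50% and 2.00%. They were 0.200%, 1.99%, 4.95% and 0.746% when thinned, 0.257%, 1.99%, 1.31% and 0.546% at 2 UMIs, and 10.6% at 96 h with at least 400 genes.

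Directions changed as follows. With both classes gated, Acsl4 had -0.0947 and Mt2 -0.94. With ungated comparison nuclei, Clu had -0.49, Lcn2 -0.41 and Mt2 -0.0338. When thinned, C3 had -0.44 and Pfkfb3 -0.0407. Acsm3 had -0.22 against Vcam1+ Havcr1- nuclei at 2 Havcr1 UMIs. Depth limits low genes, since 1 UMI in the Havcr1+ sum is 10.2, 2.08, 5.54 and 8.25 CPM at no injury, 64 h, 96 h and 28 d.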

Other observations

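Genes of other kidney segments were called among the marker lists and are given here as values. Trpm6, a magnesium channel of the distal convoluted tubule, stood at 50.9, 43.8, 33.2 and 82.5 CPM in Havcr1+ nuclei against 21.3, 7.22, 3.23 and 16.7 CPM in comparison nuclei at no injury, 64 h, 96 h and 28 d (log2 fold change 2.14 ± 0.37, adjusted p = 3.70e-05, edgeR). Slc12a3, the defining carrier of that segment, did not pass (-0.42, adjusted p = 0.42, edgeR), and was lower with both classes gated (-2.28, adjusted p = 5.39e-06, edgeR). Fst, the activin inhibitor follistatin listed with the thin limb, stood at 40.8, 12.5, 33.2 and 16.5 CPM in Havcr1+ nuclei against 8.41, 1.52, 1.61 and 2.79 CPM in comparison nuclei (2.69 ± 0.60, adjusted p = 0.00118, edgeR). For Trpm6 and Fst every Havcr1+ library was above every comparison library. Egf of the thick ascending limb (0.60 ± 0.20, adjusted p = 0.030, edgeR) and Slc26a4 of intercalated cells (1.44 ± 0.43, adjusted p = 0.019, edgeR) were also higher, and Slc8a1 of the connecting tubule lower (-1.24 ± 0.32, adjusted p = 0.00565, edgeR). With both classes gated the call of Slc26a4 was lost (0.0866, adjusted p = 0.98, edgeR), while Trpm6 had 2.03, Egf 0.81 and Slc8a1 -3.90. Summed markers of 2 of these segments changed direction between libraries. Intercalated markers stood at 10.2, 108, 38.7 and 57.8 CPM in Havcr1+ nuclei against 50.8, 37.3, 19.4 and 50.9 CPM in comparison nuclei. Connecting tubule markers stood at 30.6, 29.2, 122 and 396 CPM against 664, 129, 38.8 and 580 CPM.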
